A study of Mus musculus with 36 samples.

Results

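Stathmins and neuronal cytoskeleton genes were followed across pancreatic islets from wild-type (WT) and Gαz-deficient (KO) mice fed a control diet (CD) or a high-fat diet (HFD). The 9 genes were listed by name, a list chosen by function after Stmn2 had been seen to be lower in KO HFD than in KO CD islets on these arrays: the stathmins Stmn1, Stmn2, Stmn3 and Stmn4, the growth-cone protein Gap43, the tubulin Tubb3, and the intermediate filament proteins Prph, Nefl and Nefm. Of these 9 genes, 7 had a transcript cluster (the group of probes that reads the exons of a gene) of their own among the 14860 genes measured. Stmn1 had no cluster under its symbol in the annotation used, and the cluster of Tubb3 also carried the symbol of another gene, so neither was given a value. The islets came from male C57BL/6N mice. KO mice lacked 1 coding exon of Gnaz in all tissues, not only in islets, and Gnaz encodes Gαz, a G protein subunit that inhibits cAMP production. Both diets began at 11 weeks of age and lasted 16 weeks, with 10 kcal% of fat in the CD and 45 kcal% in the HFD. The labels put the mice at 6 months of age, which fits these times, while the deposited protocol gives 37 to 40 weeks.

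Stathmins bind free tubulin dimers and destabilize microtubules until they are phosphorylated. Stmn2, Stmn3 and Stmn4 are the membrane-anchored forms of the nervous system, and Stmn2 and Gap43 are classical genes of growing axons. Peripherin (Prph) and the neurofilament light and medium chains (Nefl and Nefm) build the intermediate filaments of axons, peripherin above all in peripheral and autonomic neurons. Islets are innervated by sympathetic and parasympathetic fibers, can hold neurons of intrapancreatic ganglia at their edge, and consist of endocrine cells that share part of the neuronal program. In RNA of whole islets, fewer cells of a type and less RNA per cell cannot be told apart.

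Exon arrays were run on 18 islet preparations, named here by group and islet number: 5 WT CD, 5 KO CD, 4 WT HFD and 4 KO HFD. The values are log2 signals normalized by robust multiarray average (RMA). As in the original analysis, KO HFD 11 was left out, so comparisons are over 17 arrays with 3 KO HFD arrays, and KO HFD 11 is shown beside them. The median of all genes was 8.34 to 8.40 in these 3 KO HFD arrays, 8.52 in KO HFD 11 and 8.48 to 8.71 in the other groups. For Gnaz the KO and WT arrays did not overlap on either diet, with a log2 fold change of -0.74 (SE 0.06, limma adjusted p = 2.9e-05) on CD and -1.02 (SE 0.08, adjusted p = 4.1e-06) on HFD. The hormone genes Ins2 and Gcg averaged 13.83 and 14.24 over the arrays. The acinar enzyme gene Cpa1 averaged 14.38, so acinar RNA was present in the arrays beside islet RNA.

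In the RefSeq annotation of build GRCm38.p6, Stmn2 lies at chr3:8509527-8561604, Stmn3 at chr2:181306459-181314500, Stmn4 at chr14:66344210-66361680, Gap43 at chr16:42248552-42340651 and Prph at chr15:99053579-99058978. Nefl (chr14:68083863-68089095) and Nefm (chr14:68119545-68125004) lie close together on chromosome 14. RefSeq promoters, the 250 bases before the transcript start listed, are shown for Stmn3 and Prph. These were the only 2 measured members with a promoter among the sequences available. Stmn2, Stmn4, Gap43, Nefl and Nefm had none there, so their promoters were not searched. The Prph stretch lies inside the gene interval given above, so it precedes a transcript start within that interval. The bases before the interval itself are not shown. Capitals mark the motifs found, which were searched on both strands.
Stmn3, chr2:181314501-181314750, minus strand: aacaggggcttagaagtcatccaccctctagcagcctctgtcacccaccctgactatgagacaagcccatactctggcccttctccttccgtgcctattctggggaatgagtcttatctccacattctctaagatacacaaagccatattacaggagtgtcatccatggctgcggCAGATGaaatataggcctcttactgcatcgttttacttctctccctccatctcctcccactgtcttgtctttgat
Prph, chr15:99054924-99055173, plus strand: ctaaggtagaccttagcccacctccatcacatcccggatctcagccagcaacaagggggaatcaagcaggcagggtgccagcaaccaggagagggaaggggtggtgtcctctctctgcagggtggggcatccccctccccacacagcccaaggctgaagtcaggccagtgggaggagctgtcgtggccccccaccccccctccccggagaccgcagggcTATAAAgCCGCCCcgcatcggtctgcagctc
The Stmn3 sequence held the E-box CAGATG, the core bound by neurogenic basic helix-loop-helix factors, 75 bases before the start. This motif was present in 14.4% of all 32851 promoters of the table. The Prph sequence held a TATA box (TATAAA) 31 bases before the start, which 12.4% of the promoters held, and a GC box (GGGCGG, here on the other strand) at 24 bases, which 32.7% held. Neither held the cAMP response element TGACGTCA (1.55% of the promoters) or its core TGACG (17.8%). A match or its absence describes these letters only.

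The members differed widely in signal. Stmn3 averaged 9.71 on the log2 scale, above 74.2% of the genes, and Nefm averaged 8.69, above 53.0%. Stmn2 averaged 8.00 and lay above 40.3%, while Stmn4 (7.54), Nefl (7.46), Gap43 (7.41) and Prph (7.37) lay above 29.2% to 32.4%. Different probes give different signals for the same amount of RNA, so these positions do not rank the genes by abundance. As a yardstick for dim signals, the 718 olfactory receptor genes, which islets are not known to express as a class, had a median of 5.14 and a 95th percentile of 7.52. The means of Gap43, Prph and Nefl lay below that percentile, and that of Stmn4 just above it, so the signals of these 4 genes lay in the range of dim probes, where arrays understate differences.

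Stmn2, which destabilizes microtubules in the growth cone, was among the more variable genes within each group. It read 7.77, 7.90, 9.04, 9.34 and 8.72 in KO CD 1, 2, 3, 12 and 13. It read 7.95, 8.22, 8.32, 7.77 and 8.42 in WT CD 4, 5, 6, 14 and 15. In KO CD islets, 3 arrays were above every WT CD array, and 2 were within or at the edge of the WT CD range. It read 8.12, 7.51, 7.63 and 7.55 in WT HFD 7, 8, 9 and 16, and 7.13, 7.55 and 7.34 in KO HFD 10, 17 and 18, with 7.66 in KO HFD 11. The HFD arrays were mostly below the CD arrays, yet the ranges of WT HFD and WT CD, and of KO HFD and WT HFD, overlapped. The SD in KO CD islets was 0.70 (n = 5), larger than that of 99.6% of the genes, whose median SD was 0.12. Its SD was 0.27 (n = 5) in WT CD, 0.28 (n = 4) in WT HFD and 0.21 (n = 3) in KO HFD islets, larger than that of 93.4%, 95.1% and 88.2% of the genes.

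Stmn3, a neuronal stathmin found along the axon and Golgi, had its lowest mean in KO HFD islets. It read 9.54, 9.66, 9.65, 9.49 and 9.74 in WT CD 4, 5, 6, 14 and 15, and 9.86, 10.12, 9.82, 10.08 and 9.74 in KO CD 1, 2, 3, 12 and 13. It read 10.04, 9.82, 9.72 and 9.58 in WT HFD 7, 8, 9 and 16. The 3 KO HFD arrays 10, 17 and 18 read 9.30, 9.45 and 9.49, below every KO CD and WT HFD array, and KO HFD 11 read 9.67, above WT HFD 16. Stmn4, the remaining stathmin, lay between 7.38 and 7.65 in all 18 arrays, and its group means over the 17 arrays were 7.53 to 7.56.

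Nefm, the medium neurofilament chain, was lowest in the 3 KO HFD arrays, which also had the lowest medians over all genes (8.34 to 8.40). It read 8.28, 8.23 and 8.28 in KO HFD 10, 17 and 18 and 8.57 in KO HFD 11. It read 9.06, 8.74, 8.62 and 8.68 in WT HFD 7, 8, 9 and 16, and 8.72, 8.74, 8.53, 8.65 and 8.77 in WT CD 4, 5, 6, 14 and 15. In KO CD 1, 2, 3, 12 and 13 it read 8.74, 9.01, 8.89, 8.88 and 9.05. KO HFD 11 was still below every WT HFD and KO CD array, but above WT CD 6. Without KO HFD 11, KO HFD arrays lay below every WT HFD array for 36.5% of all genes. They lay below every KO CD array for 40.4%. The share of genes lowest in KO HFD against all groups at once was not counted.

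Prph, the intermediate filament protein of peripheral neurons, read 7.18, 7.17, 7.64, 8.10 and 7.64 in KO CD 1, 2, 3, 12 and 13. The same 3 arrays as for Stmn2 were above all 5 WT CD arrays, which lay between 7.27 and 7.46. WT HFD arrays lay between 7.11 and 7.51 and KO HFD arrays, KO HFD 11 included, between 7.09 and 7.33. Gap43, which guides growth-cone actin, read 7.46, 7.36, 7.75, 7.62 and 7.65 in KO CD 1, 2, 3, 12 and 13, against 7.23 to 7.46 in WT CD, 7.23 to 7.49 in WT HFD and 7.27 to 7.46 in the 4 KO HFD arrays. Nefl, the light neurofilament chain, ran from 7.24 to 7.77 in KO CD islets and from 7.27 to 7.63 in the other groups.

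**Figure D1:**
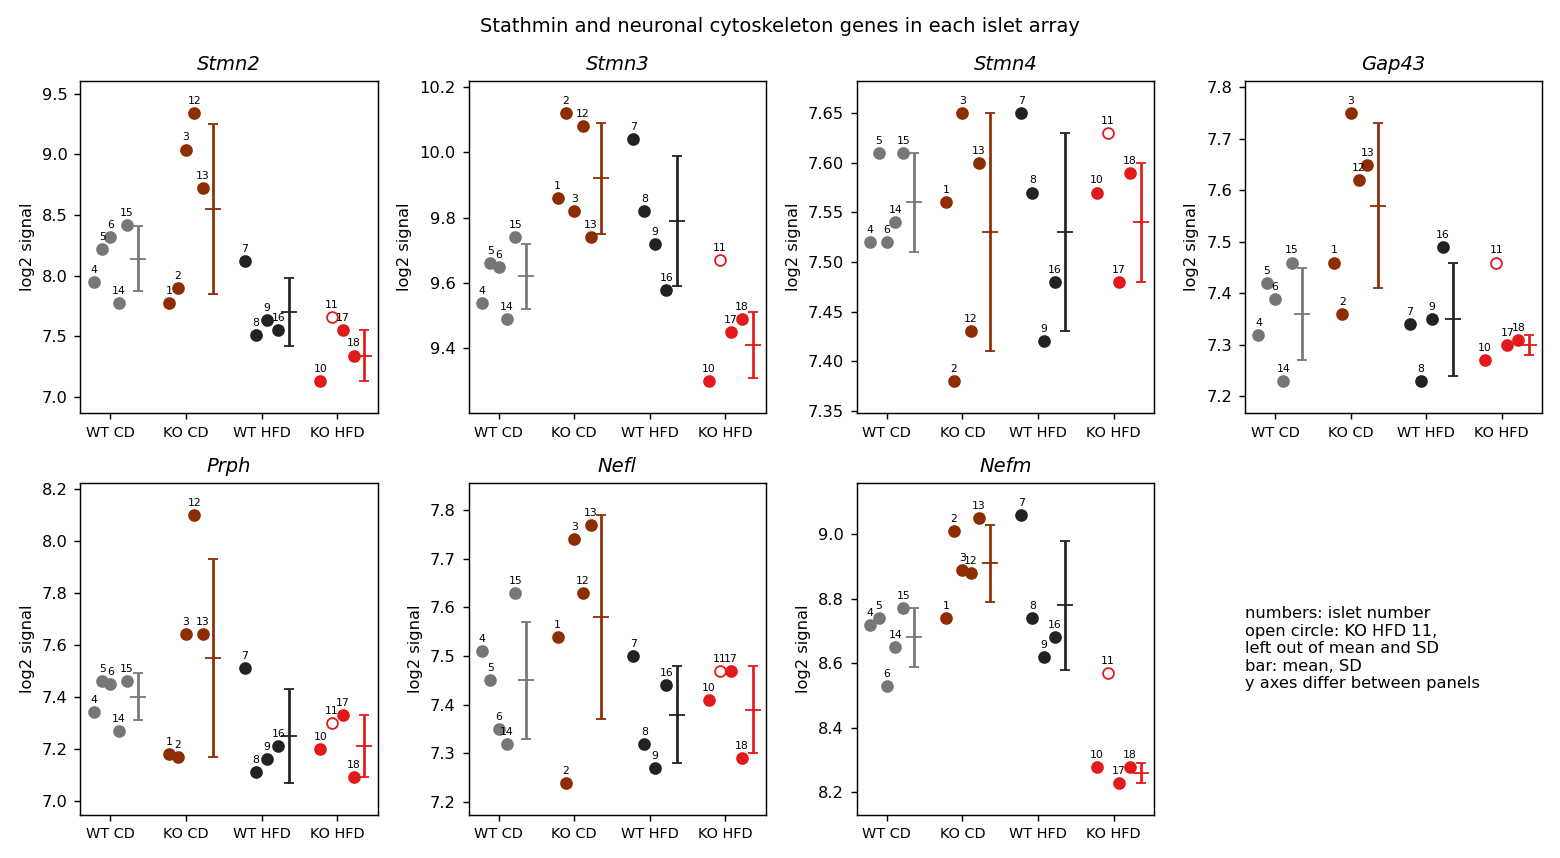
Log2 signal (y axis, a scale of its own in each panel) of the 7 measured genes in each islet array by group (x axis); numbers are islet numbers, bars are the mean and SD, and the open circle is KO HFD 11, left out of both. KO CD 3, 12 and 13 sit above every WT CD array for Stmn2 (8.72 to 9.34 against 7.77 to 8.42), and the 3 filled KO HFD points sit below every other array for Nefm (8.23 to 8.28).

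To learn whether loss of Gαz changed these genes on CD, KO CD islets were compared with WT CD islets. Of the 7 genes, 0 passed at an adjusted p under 0.05 by limma, a linear model with a moderated variance, where 0.155% of all genes passed in either direction. Differences were positive for 6 of the 7 genes. Stmn2 had a log2 difference of 0.42 (SE 0.25, adjusted p = 0.43), and the values were 0.30 (SE 0.09, adjusted p = 0.18) for Stmn3, 0.23 (SE 0.08, adjusted p = 0.22) for Nefm and 0.21 (SE 0.07, adjusted p = 0.22) for Gap43. The median over the members was 0.21, beside 0.04 over all genes.

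The question of what HFD does without loss of Gαz was read from WT islets. Again 0 of the 7 genes passed between WT HFD and WT CD islets, where 0.188% of all genes did. Stmn2 had the largest difference, -0.44 (SE 0.27, adjusted p = 0.71), while Stmn3 had 0.17 (SE 0.09, adjusted p = 0.65) and Nefm 0.09 (SE 0.08, adjusted p = 0.81). The median was -0.03 over the members and 0.01 over all genes.

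On HFD, Nefm and Stmn3 were lower in KO than in WT islets. Nefm fell by 0.51 on the log2 scale (SE 0.09, adjusted p = 0.0018), from 8.78 ± 0.20 (SD, n = 4) in WT HFD to 8.26 ± 0.03 (SD, n = 3) in KO HFD islets, and Stmn3 fell by 0.38 (SE 0.11, adjusted p = 0.017), from 9.79 ± 0.20 (SD, n = 4) to 9.41 ± 0.10 (SD, n = 3). These 2 of 7 genes stood beside a background of 28.1% of all genes that passed as lower, and 1.32% that passed as higher, so the share of members was near the background. The groups did not overlap for the same 2 genes, as was so for 36.5% of all genes in that direction. Stmn2 differed by -0.36 (SE 0.30, adjusted p = 0.40), and Gap43, Prph, Nefl and Stmn4 by -0.06 to 0.02. The median over the members was -0.06, closer to 0 than the -0.13 of all genes. With KO HFD 11 included, Nefm differed by -0.43 (SE 0.10, adjusted p = 0.01) and Stmn3 by -0.31 (SE 0.10, adjusted p = 0.042), beside 20.3% of all genes called lower.

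The call of Stmn3 depended on the scaling and on single arrays. It ended after median centring of the arrays (-0.21, adjusted p = 0.13), after quantile normalization (-0.17, adjusted p = 0.17), without WT HFD 7 (-0.29, adjusted p = 0.056) and without KO HFD 10 (-0.32, adjusted p = 0.068). Nefm passed in each of these settings, at -0.34 after median centring (adjusted p = 0.011) and -0.35 after quantile normalization (adjusted p = 0.0083). The arrays carried islet numbers 1 to 11 and 12 to 18, each set with all 4 groups, although the labels do not say what the numbers stand for. Nefm differed by -0.53 among the lower and by -0.42 among the higher numbers, and Stmn3 by -0.56 and -0.11. These are given as values, since KO HFD had 1 array in the lower set and WT HFD 1 in the higher set.

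The genotype difference of Nefm and Stmn3 depended on diet. The interaction, the genotype difference on HFD minus that on CD, was -0.74 (SE 0.12, adjusted p = 0.0028) for Nefm and -0.68 (SE 0.14, adjusted p = 0.0046) for Stmn3, and 31.2% of all genes passed as lower in it. Their signals were thus higher in KO than in WT islets on CD, by differences that did not pass, and lower on HFD. Both interactions passed after median centring (-0.51 and -0.45). With the acinar marker mean as a covariate the interaction was -0.96 for Nefm (SE 0.19, adjusted p = 0.076). For Stmn3 it was -0.62 (SE 0.23, adjusted p = 0.13). The SEs were larger than in the main fit. Both calls ended, as did every other interaction call, since 0 of all genes then passed. The interaction also holds the difference of KO HFD and KO CD islets in which Stmn2 was seen, so its value for Stmn2 is a description. That value was -0.78, with an SE of 0.40 (adjusted p = 0.14). It was past the threshold only when KO CD 1 was left out (-0.97, adjusted p = 0.041). Gap43 had -0.26 (SE 0.11, adjusted p = 0.075) and passed only when KO CD 2 was left out. The median was -0.26 over the members, Stmn2 included, and -0.18 over all genes.

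**Figure D2:**
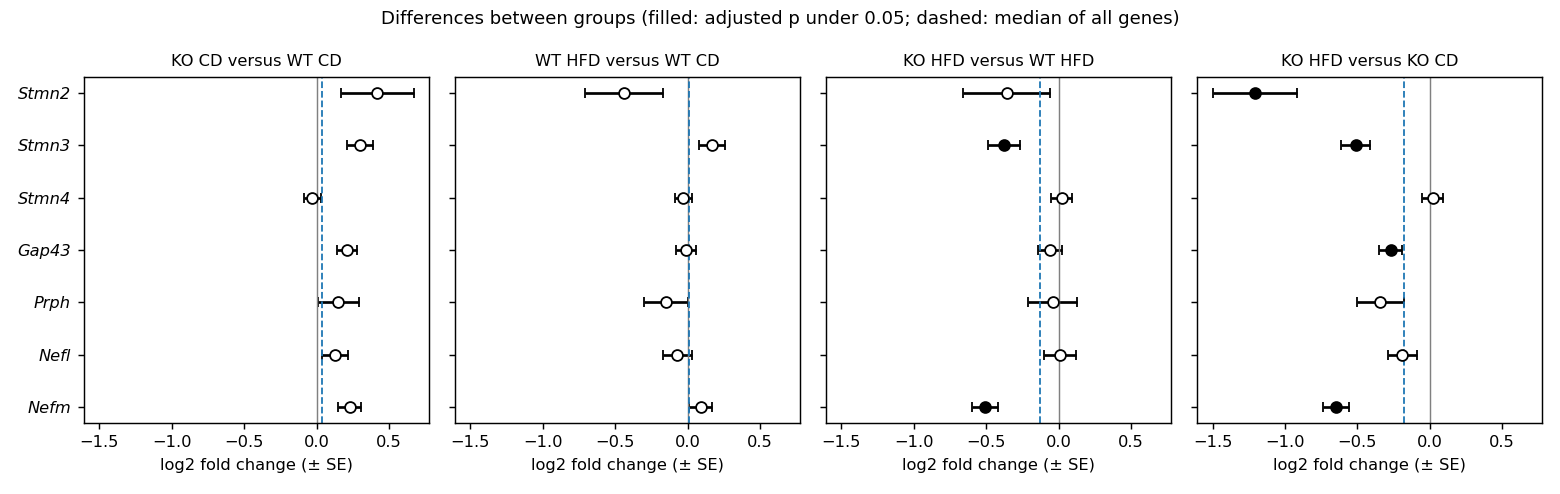
Log2 fold change (x axis) of each measured gene (y axis) in 4 comparisons over 17 arrays; bars are limma SEs, filled points passed at an adjusted p under 0.05 and the dashed line is the median of all genes. By genotype on HFD, Nefm (-0.51) and Stmn3 (-0.38) lie left of the median of all genes (-0.13), and the other filled points are in KO HFD versus KO CD islets.

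The contrast of KO HFD with KO CD islets is the one in which Stmn2 was seen when the genes were listed, so its values are a description. Stmn2 was lower by a log2 difference of -1.21 (SE 0.29), Nefm by -0.65 (SE 0.09), Stmn3 by -0.51 (SE 0.10) and Gap43 by -0.27 (SE 0.08). These 4 of 7 genes were past the threshold, where 44.6% of all genes were past it as lower and 1.45% as higher. Their groups did not overlap, as for 40.4% of all genes in that direction. The differences were -0.34 (SE 0.16) for Prph, -0.19 (SE 0.10) for Nefl and 0.02 (SE 0.07) for Stmn4. Gap43 (adjusted p = 0.012) was the nearest of them inside the threshold and Prph (adjusted p = 0.096) the nearest outside it. Without KO CD 3, 12 and 13, a choice made after seeing the data, Stmn2 differed by -0.49 and Gap43 by -0.11, and neither passed. This comparison and that of KO HFD with WT HFD share the KO HFD arrays.

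After median centring Gap43 differed by -0.02 and Stmn4 by 0.27 in KO HFD versus KO CD islets. Gap43 was then no longer past the threshold, which left 3 members as lower, and Stmn4 was past it as higher. Over all genes 7.64% were then lower and 3265 of 14860 higher. Stmn4 lay above the median of all genes with and without centring. Median centring moved the median of all genes from -0.18 to 0.07 in this comparison and from -0.13 to 0.04 when KO HFD was compared with WT HFD. Nefm and Stmn3 followed the median of the array, with Pearson's r of 0.89 and 0.81 over 17 arrays, and Stmn2 did so with 0.73. Stmn4 did not, with r of -0.09. These correlations are descriptions over arrays that share their groups and their normalization.

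**Figure D3:**
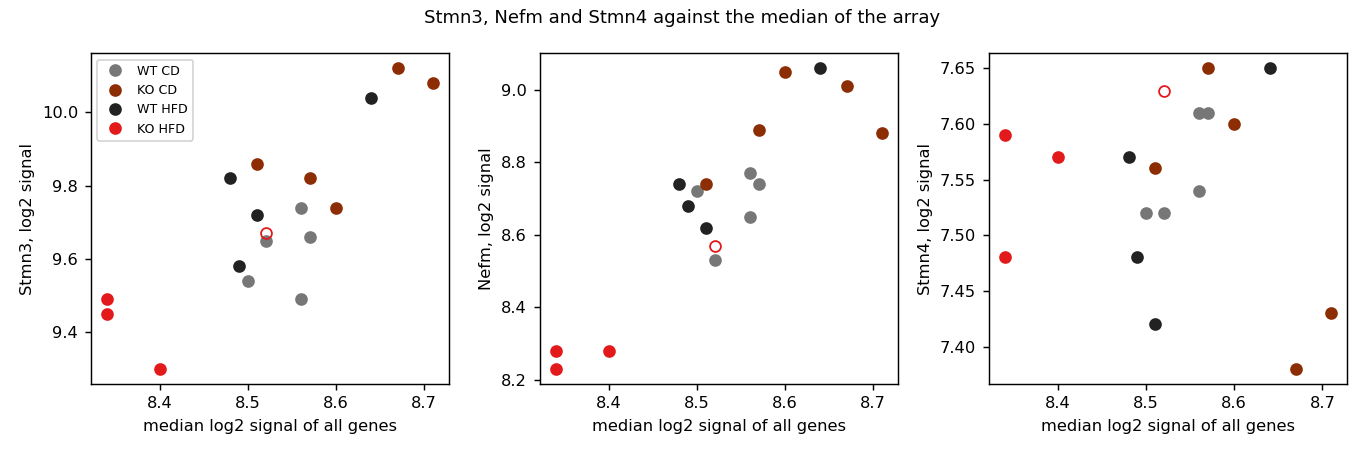
Log2 signal of Stmn3, Nefm and Stmn4 (y axes) against the median log2 signal of all genes on the same array (x axes), 1 point per array, with KO HFD 11 as an open circle. The 3 filled KO HFD points lie at array medians of 8.34 to 8.40 and are the lowest of all for Nefm (8.23 to 8.28), below every KO CD and WT HFD array for Stmn3 (9.30 to 9.49), and in the middle for Stmn4.

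Over the 17 arrays 16 genes had Pearson's r of at least 0.9 with Stmn2, and the 5 highest are described here. Chrna3, the nicotinic receptor subunit that carries fast transmission in autonomic ganglia, had r of 0.98 and Spearman's rho of 0.95. It was followed by the adhesion molecule Chl1 (r 0.96), the high-affinity choline transporter Slc5a7 (0.95), the receptor transporter Rtp1 (0.95) and the synaptic vesicle calcium sensor Syt1 (0.95). In KO CD 1, 2, 3, 12 and 13, Chrna3 read 7.27, 7.10, 8.70, 8.98 and 8.37, the same 3 arrays high. In WT CD arrays it lay between 7.17 and 8.02, in WT HFD between 6.74 and 7.71 and in KO HFD between 6.70 and 7.22. The likeness was also present within groups, as r of the deviations from the group means was 0.98 for Chrna3, 0.93 for Chl1, 0.93 for Slc5a7, 0.92 for Rtp1 and 0.88 for Syt1. Without the 2 arrays farthest from the median of Stmn2, KO CD 12 and KO CD 3, r was 0.95 for Chrna3 and 0.89 to 0.92 for the others. The most opposed patterns were those of 5031434C07Rik (r -0.84), the carboxylesterase Ces2a (-0.83) and the ascorbate transporter Slc23a1 (-0.79), the last of which had r of -0.30 with KO HFD 11 included. By the olfactory receptor yardstick most of these genes were dim. Group means over the 17 arrays were 6.33 to 7.29 for Chl1, Slc5a7, Rtp1, 5031434C07Rik and Slc23a1, below the 95th percentile of 7.52. Those of Ces2a were 4.80 to 5.01, below the olfactory median of 5.14. Group means of Syt1 (8.32 to 9.31) lay above 7.52, and those of Chrna3 ran from 6.94 to 8.08. No p is given, since the genes were picked for their likeness and the arrays share their groups.

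Among the members, Prph was most like Stmn2, with r of 0.92 and rho of 0.87 over 17 arrays and r of 0.93 in the deviations from group means. Gap43 had r of 0.81 (0.71 in the deviations), Nefl 0.72 (0.63), Nefm 0.63 (0.28), Stmn3 0.56 (0.28) and Stmn4 0.14 (0.27). After median centring r with Stmn2 was 0.82 for Prph, 0.44 for Nefm, 0.42 for Gap43, 0.35 for Nefl, 0.29 for Stmn3 and -0.37 for Stmn4, so of these genes Prph alone stayed above 0.5. Stmn3 and Nefm were most like each other, with r of 0.81 (0.46 in the deviations). Gap43 and Nefl had r of 0.81 (0.75 in the deviations). Differences between these r were not tested.

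**Figure D4:**
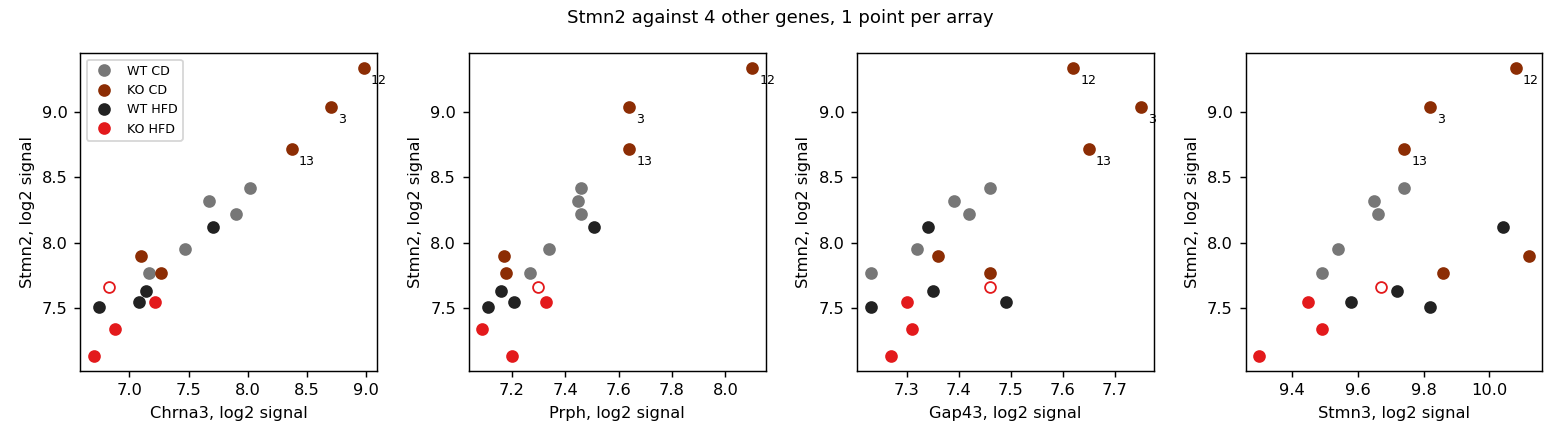
Log2 signal of Stmn2 (y axes) against Chrna3, Prph, Gap43 and Stmn3 (x axes), 1 point per array, with KO HFD 11 as an open circle and KO CD 3, 12 and 13 numbered. Stmn2 rises along Chrna3 (r 0.98) and Prph (0.92) over 17 arrays, and the points scatter more for Gap43 (0.81) and Stmn3 (0.56).

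Markers of autonomic neurons moved with Stmn2 in part. Of 15 measured markers, 9 had r over 0.5 with Stmn2 over the 17 arrays, beside 38.4% of all genes, and in the deviations from group means 11 did, beside 13.4% of all genes. Named after their values were seen, these included, besides Chrna3 and Slc5a7, the vasoactive intestinal peptide gene Vip (r 0.92), nitric oxide synthase Nos1 (0.87), the vesicular acetylcholine transporter Slc18a3 (0.86) and the nicotinic subunit Chrnb4 (0.81). Without KO CD 12 and KO CD 3, r stayed at 0.64 to 0.95 for these 6 genes. It fell from 0.66 to 0.35 for Phox2a, from 0.65 to 0.27 for Chat and from 0.63 to 0.40 for Elavl3. Vip read 6.37, 6.15, 7.46, 7.76 and 7.60 in KO CD 1, 2, 3, 12 and 13. The noradrenergic genes had r of 0.31 for tyrosine hydroxylase Th (0.61 in the deviations), 0.06 for dopamine beta-hydroxylase Dbh (0.38) and 0.06 for the noradrenaline transporter Slc6a2 (0.07). The neuronal RNA-binding protein genes Elavl4 and Rbfox3 had 0.06 (-0.03) and 0.36 (0.08). The mean of the 15 markers was 7.99, 8.16 and 7.89 in KO CD 3, 12 and 13, against 7.65 and 7.61 in KO CD 1 and 2. It was 7.57 to 7.86 in WT CD, 7.58 to 7.87 in WT HFD and 7.52 to 7.59 in KO HFD arrays. Normalized array values have no true 0, so absence of such markers cannot be read from them. The part of such cells in the differences of Stmn2, Prph and Gap43 was not tested.

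Of the 15 neuron markers, 6 passed as lower in KO HFD versus KO CD islets (Chrna3, Slc5a7, Chrnb4, Slc18a3, Nos1 and Vip), 1 as lower between KO HFD and WT HFD, and 0 in the other comparisons. These shares lay below the 44.6% and 28.1% of all genes called lower in the same contrasts, so they say nothing particular to neuron markers. The mean of 10 Schwann cell markers, genes of the glia along nerve fibers and around islets, was 8.05 to 8.06 in KO CD 3, 12 and 13, 7.87 in KO CD 1 and 2, 7.92 to 8.03 in WT CD, 7.85 to 8.01 in WT HFD and 7.73 to 7.81 in the 3 KO HFD arrays. It was 7.97 in KO HFD 11. By genotype on HFD 1 of these 10 markers was called lower, and their differences ran from -0.97 to 0.12 with a median of -0.05. Markers of other cells were read by genotype on HFD beside the 28.1% of all genes called lower and 1.32% called higher. The mean of 16 acinar markers was 12.60 to 13.21 in KO HFD and 11.95 to 12.37 in WT HFD arrays, with 13 of 16 called higher, and 12.46 in KO HFD 11. The mean of 11 endocrine granule markers was 12.43 to 12.64 against 12.76 to 12.87, with 9 of 11 called lower, and 12.72 in KO HFD 11. Of the markers of beta cells 3 of 9 were lower, of alpha, delta and PP cells 4 of 6, of endothelium 7 of 9, of stellate cells and fibroblasts 3 of 10, of dividing cells 4 of 13 and of leukocytes 0 of 12, while 1 of 5 duct markers was higher. By diet in KO islets, 7 of 16 acinar markers were higher and 7 of 11 endocrine markers lower, beside 1.45% and 44.6% of all genes. With the acinar marker mean as a covariate, the HFD genotype difference of Nefm passed (-0.65, adjusted p = 0.027). That of Stmn3 did not (-0.34, SE 0.16, adjusted p = 0.19), beside -0.38 (SE 0.11) in the main fit. The part of these cells in the differences of Nefm and Stmn3 was not tested further.

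**Figure D5:**
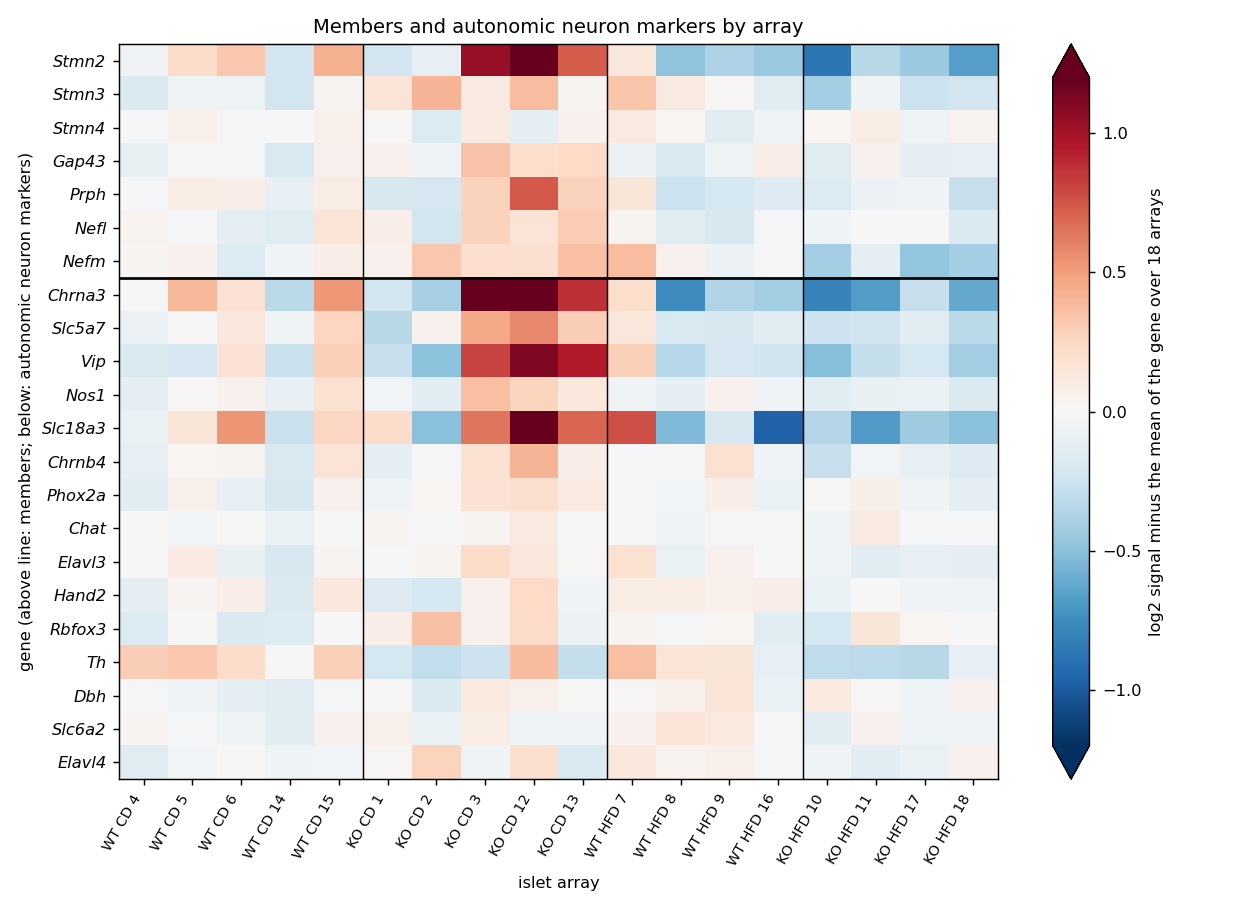
Log2 signal minus the mean of the gene over 18 arrays (color scale, ending at the arrows) for the members (above the line) and 15 autonomic neuron markers (below it), with 1 column per islet array by group. KO CD 3, 12 and 13 are high for Stmn2, Prph, Chrna3, Vip and Slc18a3, whereas Nefm and Stmn3 are low in KO HFD 10, 17 and 18.

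The partners of these proteins were read from 5 lists written with earlier results of these arrays known. By genotype on CD and by diet in WT islets, 0 genes of the 5 lists passed. By genotype on HFD, 31 of the 63 genes passed, 30 as lower and 1 as higher. Over all genes 28.1% passed as lower, and 95.5% of all genes that passed were lower, so the direction of the listed genes was that of the background. With dim genes left out of the fit, 43.6% of the 10346 genes kept passed as lower. Tubulins, the subunits that stathmins bind, were lower in 4 of 8 genes and higher in 0, with a median of -0.22 beside -0.13 over all genes (after median centring -0.05 beside 0.04). Tubb6 fell by 0.64 (SE 0.09, adjusted p = 0.00039), Tubb2a by 0.63, Tubb5 by 0.57 and the gamma-tubulin Tubg1 by 0.27. After median centring Tubb6 (-0.47) and Tubb2a (-0.46) passed, but with KO HFD 11 included Tubb2a did not (-0.37, adjusted p = 0.22).

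Microtubule-associated proteins and motors were lower in 12 of 20 genes and higher in 0, beside 28.1% of all genes called lower. With dim genes left out of the fit that share was 43.6%. The median of the list was -0.26, beside -0.13 over all genes. Doublecortin, Dcx, which stabilizes microtubules in migrating neurons, fell by 0.62 (SE 0.10, adjusted p = 0.00088), its relative Dclk1 by 0.52, tau (Mapt) by 0.43 and the kinesin heavy chain Kif5b by 0.38. After median centring the list had 4 lower and 2 higher genes, beside 5.35% of all genes lower and 731 of 14860 higher. The 4 named genes passed as lower in that setting. Among 9 other intermediate filament and filament-linker genes, 2 were lower and 1 higher. Alpha-internexin, Ina, a neurofilament partner, fell by 0.47 (SE 0.08, adjusted p = 0.0014), from 11.17 ± 0.10 (SD, n = 4) to 10.70 ± 0.08 (SD, n = 3), and the heavy neurofilament chain Nefh fell by 0.27 (SE 0.08, adjusted p = 0.019). Dystonin, Dst, which links filaments to other cytoskeletal parts, rose by 0.19 (SE 0.05, adjusted p = 0.013), a call that rests on KO HFD 11 being left out (0.09, adjusted p = 0.42, with it). After median centring Ina and Dst passed and Nefh did not (-0.10, adjusted p = 0.33).

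The next 2 lists are also read beside 28.1% of all genes called lower, 43.6% with dim genes left out of the fit. Growth-cone and collapsin response mediator genes were lower in 5 of 12 and higher in 0. Their median was -0.21, beside -0.13 over all genes. Crmp1, which acts in axon guidance, fell by 0.69 (SE 0.08, adjusted p = 0.00032), the ubiquitin hydrolase Uchl1 by 0.59, the actin bundler Fscn1 by 0.40 and the reticulon Rtn1 by 0.32. After median centring Crmp1 and Uchl1 passed as lower, Fscn1 and Rtn1 did not, and 1 other gene of the list passed as higher. The list of stathmin regulators held mostly kinase genes, with Cdk5r1, Rac1 and the repressors of neuronal genes Rest and Rcor1. It was lower in 7 of 14 genes and higher in 0, but 0 passed after median centring. The kinase Cdk5 fell by 0.33 (SE 0.07, adjusted p = 0.0033), the catalytic subunits of protein kinase A Prkacb by 0.32 and Prkaca by 0.31, and the Cdk5 activator Cdk5r1 by 0.31. Prkaca did not pass with KO HFD 11 included (-0.23, adjusted p = 0.07). Rest, the repressor that silences neuronal genes in other cells, differed by -0.06 (SE 0.12, adjusted p = 0.74), and by 0.11 after median centring.

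By diet in KO islets, beside 44.6% of all genes called lower, the lists had 7 of 8 tubulins, 12 of 20 microtubule-associated proteins and motors, 4 of 9 intermediate filament genes, 7 of 12 growth-cone genes and 9 of 14 stathmin regulators, all lower, and 1 intermediate filament gene, Dst, was higher. Their medians were -0.42, -0.24, -0.28, -0.25 and -0.26, beside -0.18 over all genes. With dim genes left out of the fit, 63.9% of the 10346 genes kept were called lower. After median centring 4, 2, 0, 2 and 1 of them were lower and 0, 3, 2, 2 and 1 higher, and the medians were -0.17, 0.01, -0.03, 0.00 and -0.01, beside 0.07 over all genes.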

How the data were processed

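RNA of islets from 18 male mice was hybridized to Affymetrix Mouse Exon 1.0 ST arrays, 1 array per mouse. The deposited values are log2 signals of 23332 transcript clusters, which the authors made with Expression Console 1.3 by gene-level RMA. The genome build of the array annotation is not given in the sources used here. The number of arrays limits the precision.

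Clusters with 1 gene symbol (14996) were kept, with the brightest cluster for each of 135 genes with several, which left 14860 genes. Clusters with several symbols (1019) or none (7317) were not used. Groups came from the labels. limma 3.58.1 in R 4.3.3 fitted the 4 groups over all genes (lmFit, contrasts and eBayes), and p-values were Benjamini-Hochberg adjusted over the 14860 genes, with a call at an adjusted p under 0.05. The study used 3 of its 4 KO HFD arrays. Leaving out KO HFD 11 was the only omission under which its tabulated fold changes were recovered, within 0.01 for 71 of 71 genes, so that array was left out and all 18 arrays were an alternative. Other alternatives were median centring, quantile normalization, each array left out in turn, array weights, islet number sets, a filter on dim genes and the acinar marker mean as a covariate. The fits were tested on simulated data. Motifs were searched in RefSeq promoters with Python 3.11.15.

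The members and lists were chosen with earlier results of these data known. Genes named were the 9 members, Gnaz, the 4 called genes ranked first by adjusted p for genotype on HFD (or fewer) in each of 5 partner lists, with Ina, Nefh and Rest, the 5 highest and 3 lowest Pearson correlations with Stmn2, and at most 3 of the brightest genes of each of 11 marker lists. Other autonomic neuron markers (Vip, Nos1, Slc18a3, Chrnb4, Phox2a, Chat, Elavl3, Dbh, Slc6a2 and Rbfox3) were named after their values were seen. Tubb3 and Stmn1 were not analysed here. Exon-level data were not used here.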

Additional observations from a re-analysis of the deposited data

Results flagged for a closer look

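Nefm in KO HFD 11 was 8.57, above the other 3 KO HFD arrays at 8.23 to 8.28, and the gap was 0.852 of the range of the group. It was the only 1 of 28 member and group combinations tested that lay so far out, and chance gives about 1 in 20. The call of Nefm on HFD passed with and without this array.

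The genotype difference of Nefm was 0.74 lower on HFD than on CD on the log2 scale, an interaction of -0.74 by limma (adjusted p = 0.0028). That of Stmn3 was -0.68 (adjusted p = 0.0046). Both had a positive genotype difference on CD that did not pass and a negative one on HFD that passed. In the interaction 31.2% of all genes passed as lower, so these 2 of 7 members were near that share. With the acinar marker mean as a covariate the values were -0.96 (SE 0.19) for Nefm and -0.62 (SE 0.23) for Stmn3. Neither interaction then passed (adjusted p = 0.076 and 0.13), and 0 of all genes did. The HFD call of Stmn3 ended after median centring and after quantile normalization.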

How the results depend on the processing

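No paired analysis was possible because each islet number belongs to 1 array only. Of the counts of members called, 142 alternatives gave a count within 1.5 times of the main one and 10 did not. The 142 include all 31 alternatives by genotype on CD and all 31 by diet in WT islets, where a count of 0 was matched to 0. No called difference of a member reversed its direction under the alternatives run. By genotype on HFD, 2 members passed beside 28.1% of all genes called lower. The count was 1 after median centring (5.35% of all genes), 1 after quantile normalization (6.22%), 1 with the acinar marker mean as a covariate (5.99%), 1 among islet numbers 1 to 11 (8.85%) and 0 among islet numbers 12 to 18, where 0 genes of all passed. In each islet number set 1 group had a lone array, assumed to vary like the other groups. Leaving out each array in turn gave 1 to 2 (1 without WT HFD 7 and 1 without KO HFD 10). By diet in KO islets, where the counts only describe, 4 members were past the threshold (44.6% of all genes), 1 among islet numbers 1 to 11 (5.37%), 2 without KO CD 3, 12 and 13 (30.4%, chosen after seeing the data), and 4 to 6 when each array was left out. In the interaction 2 passed, against 0 with the acinar covariate, where 0 genes of all passed, and 2 to 3 when each array was left out. Nefm passed by genotype on HFD in 29 of 31 alternatives (-0.65 to -0.34) and Stmn3 in 25 of 31 (-0.56 to -0.11). Over all genes, 4176 were lower and 196 higher by genotype on HFD, against 795 and 731 after median centring and 924 and 716 after quantile normalization. By diet in KO islets they were 6632 and 215, against 1135 and 3265, and 1177 and 1246. The causes of these dependences were not tested. Gap43 was past the threshold at -0.27 by diet in KO islets. With 3 or 4 KO HFD arrays and dim probes for Gap43, Prph, Nefl and Stmn4, smaller differences in these genes may have been missed.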
